A study of Caenorhabditis elegans with 3 samples.

Results

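Of the numbered collagen genes of Caenorhabditis elegans on this array, 83 had a mean log2 ratio above 0 when late fourth-stage larvae (L4) and young adult hermaphrodites were set against a mixed wild-type reference. They were taken from 135 genes whose symbol is col- followed by a number in the platform's annotation, and every one of the 135 had 1 spot and a value on all 3 arrays. Another 46 had a mean below 0. The remaining 6, col-7, col-19, col-38, col-49, col-62 and col-63, were left out by name, as collagens listed for the adult cuticle. The 83 genes were selected on their measured log2 ratio, averaged over the 3 arrays, so their position above 0 is a description and carries no test. Of the 83, 81 are protein-coding in RefSeq, col-182 is listed there as a pseudogene, and col-175 had no entry in the gene table used.

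Cuticle collagens are short secreted proteins built of repeats that begin with glycine, made by the epidermis (hypodermis and seam cells) and laid down under the old cuticle before each moult. Their chains are hydroxylated on prolines, folded into trimers, cut by proteases and cross-linked through tyrosines outside the cell. Each cuticle uses its own set of collagens, and transcripts of single genes come and go within a moulting cycle, so a stage that spans the last larval moult can hold genes at different points of it. Not every numbered col gene belongs to the cuticle, since col-99 encodes a collagen that spans the plasma membrane.

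The study used 3 arrays with 2 channels each. Channel 2 held RNA of 1 of 3 numbered preps (1, 2 and 3) of late L4 and young adult hermaphrodites, and channel 1 held RNA of the mixed wild-type reference, whose composition is not given in the sources used here. The labels name no strain, mutation, treatment or temperature for the staged animals, and nothing says that the preps were separate cultures, so their spread may be partly technical. All values below are log2 ratios of the 2 channels, not levels, so they do not rank the genes by abundance. The direction is not stated either. More RNA in the staged animals is the likely meaning of a positive value, because these are channel 2 on every array. If the ratio ran the other way, each higher would read lower. Whole animals were used, so more epidermal RNA per animal and more RNA of a gene per epidermal cell cannot be told apart. The arrays gave values for 19825 to 19927 of 20000 spots and 15119 genes on all 3.

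The 83 genes ran from a log2 ratio of 4.50 down to 0.02, and 61 of them stood at 1 or more, a ratio of at least 2-fold. Their median was 0.87 on prep 1, 2.10 on prep 2 and 2.23 on prep 3, which average 1.73 ± 0.75 (SD, n = 3 arrays), where the median of all genes was 0.04, -0.09 and -0.06. A fit across all genes (limma, Benjamini-Hochberg adjusted p under 0.05) called 60 of the 83 higher. The same fit called 11.3% of all genes higher, and 24.0% of the 7123 genes with a mean above 0. Because the same contrast chose the genes, nothing is read from that count. With prep 1, 2 or 3 left out in turn the fit called 64, 54 and 51 of them, and 49 were called in all 3 of these fits and in the full one. Each fit without 1 prep rests on 2 arrays, and its p-values depend strongly on which 2 remain. For col-129, at means of 4.57, 4.41 and 4.54, the limma adjusted p was 8.51e-04, 4.28e-09 and 1.35e-24. Calls gained or lost without 1 prep, here and below, are therefore not on a like footing. On all 3 arrays 63 of the 83 lay above 0, against 24.9% of all genes and 52.8% of genes with a mean above 0. Of the other 20, 16 were at or below 0 on prep 1 alone.

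**Figure D1:**
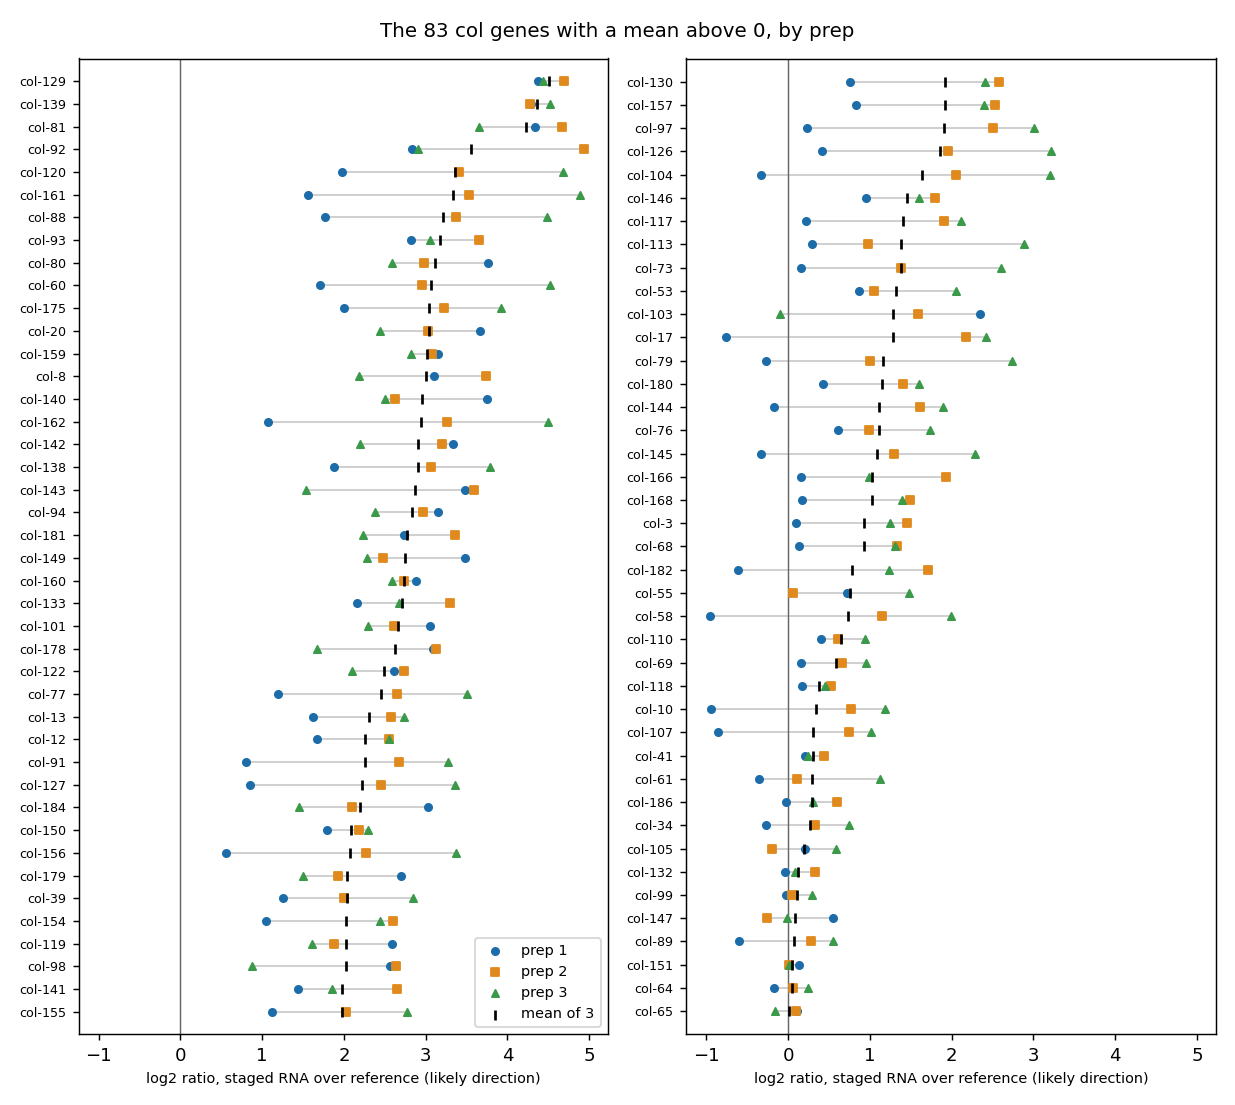
The log2 ratio of each of the 83 col genes (horizontal axis) on preps 1 (circles), 2 (squares) and 3 (triangles), ordered by the mean of the 3 (black bar), with a grey line over the range. The upper genes such as col-129 and col-139 keep all 3 preps within 0.32, while genes such as col-161 and col-104 spread over more than 3 units with prep 1 at the low end.

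The 3 collagen genes with the highest ratios were high on every prep. For col-129 preps 1, 2 and 3 gave log2 ratios of 4.38, 4.70 and 4.44, which average 4.50 ± 0.17 (SD, n = 3) and correspond to a 22.7-fold ratio. The gene col-139 stood at 4.29, 4.28 and 4.53, a mean of 4.37 ± 0.14. It was among the 4 genes with the smallest range of the whole set. For col-81 the values were 4.34, 4.67 and 3.66, a mean of 4.22 ± 0.52. Every value of these 3 genes except that of col-81 on prep 3 was above 4. These 3 genes lie on different chromosomes, IV, V and II.

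The next 9 genes had means between 3.04 and 3.56 but reached them in different ways. A group of 5 was low on prep 1 and high on prep 3. In this group col-120 stood at 1.98, 3.41 and 4.68, col-161 at 1.56, 3.53 and 4.89, and col-88 at 1.76, 3.38 and 4.48. The gene col-120 is one of the collagens that insulin-receptor mutants need for their full long life, as known from other work. In the same group, col-60 stood at 1.70, 2.96 and 4.52 and col-175 at 2.00, 3.22 and 3.92. On prep 3, col-161, col-120, col-60 and col-88 thus stood above the ratio of col-129, while on prep 1 they were lower than it by over 2 units. The opposite order held for col-80, at 3.76, 2.98 and 2.59, and for col-20, at 3.66, 3.03 and 2.44. The other 2 genes were highest on prep 2, with col-92 at 2.83, 4.93 and 2.91 and col-93 at 2.82, 3.66 and 3.05.

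Below these 12, col-159 and col-8 also had means above 3, at 3.02 ± 0.17 and 3.01 ± 0.78. Another 26 genes had means from 2.02 to 2.96, all of them above 0 on every array. They were col-140, col-162, col-142, col-138, col-143, col-94, col-181, col-149, col-160, col-133, col-101, col-178, col-122, col-77, col-13, col-12, col-91, col-127, col-184, col-150, col-156, col-179, col-39, col-154, col-119 and col-98. In this band 12 genes were lowest on prep 1, 14 on prep 3 and 0 on prep 2. The extremes of the band show both kinds. The gene col-162 went from 1.07 on prep 1 to 3.27 and 4.49 on preps 2 and 3, whereas col-143 stood at 3.48 and 3.60 on preps 1 and 2 and at 1.54 on prep 3.

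Between 1 and 2 lay 21 genes, and prep 1 was the lowest array for 20 of them. These were col-141, col-155, col-130, col-157, col-97, col-126, col-104, col-146, col-117, col-113, col-73, col-53, col-17, col-79, col-180, col-144, col-76, col-145, col-166 and col-168. The exception was col-103, at 2.34, 1.59 and -0.10, lowest on prep 3. The median SD over the arrays was 1.04 in this band, against 0.70 for genes with a mean of 3 or more and 0.67 for those between 2 and 3. The 4 widest ranges of the whole set belonged to col-104 (-0.33, 2.05 and 3.21), col-162 and col-161 (both given above) and col-17 (-0.76, 2.18 and 2.42). In the fit across all genes, col-17, col-79 and col-145 of this band did not pass, but each passed without prep 1, at means of 2.30, 1.87 and 1.79, and with array weights. Conversely, col-104 passed at 1.64 ± 1.80 but not without prep 3, where its mean was 0.86, nor with median centring, print-block centring or a robust variance. The gene col-73 passed at 1.38 ± 1.22 but not without prep 3, at 0.77.

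The lowest band held 22 genes with means from 0.02 to 0.93, of which 2, col-3 and col-68, passed the fit across all genes. The others were col-182, col-55, col-58, col-110, col-69, col-118, col-10, col-107, col-41, col-61, col-186, col-34, col-105, col-132, col-99, col-147, col-89, col-151, col-64 and col-65. Different kinds of gene met here. Some were close to 0 on every array, such as col-151 at 0.13, 0.02 and 0.01 and the membrane collagen gene col-99 at -0.02, 0.05 and 0.29. In others the preps lay on both sides of 0, such as col-58 at -0.95, 1.14 and 1.99 and col-10 at -0.94, 0.77 and 1.18. The mean of col-10 hung on 1 array, since it was -0.083 without prep 3.

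The border at 0 divided genes with little between them. Just inside it were col-89 at 0.08 ± 0.60, col-151 at 0.05 ± 0.07, col-64 at 0.04 ± 0.21 and col-65 at 0.02 ± 0.16. Just outside were col-176 at -0.01 ± 0.58, col-52 at -0.05 ± 0.94, col-177 at -0.11 ± 0.22 and col-148 at -0.18 ± 0.06. With each array centred on its median, col-176 crossed the border at 0.023. Of these 8 genes, col-151 was the only one above 0 on every array. With print-block centring, col-99 of the lowest band left the set, and col-125 and col-148 entered it.

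Over the 83 genes as a whole, prep 1 tended to give lower ratios than preps 2 and 3. Prep 1 was the lowest array for 57 of the 83 (68.7%), against 33.0% of all genes, and prep 3 for 22 (26.5%), against 32.7%. The log2 ratio of prep 1 was more than 1 unit under the mean of preps 2 and 3 for 38 genes (45.8%), against 7.37% of all genes, and more than 1 unit over it for 4 genes (4.82%), against 5.20%. The median of this difference over the 83 genes was -0.82, and over all genes 0.03. Each prep is 1 array, so the difference between preps has no replicate and was not tested. The array titles also end in what reads as a different date for each prep, so prep and that date cannot be told apart. Across the 83 genes Pearson's r was 0.76 between preps 1 and 2, 0.76 between preps 2 and 3 and 0.41 between preps 1 and 3, where over all genes it was 0.65 to 0.68. These points are genes of 1 family that share the arrays and the reference RNA, and they were cut at 0.

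**Figure D2:**
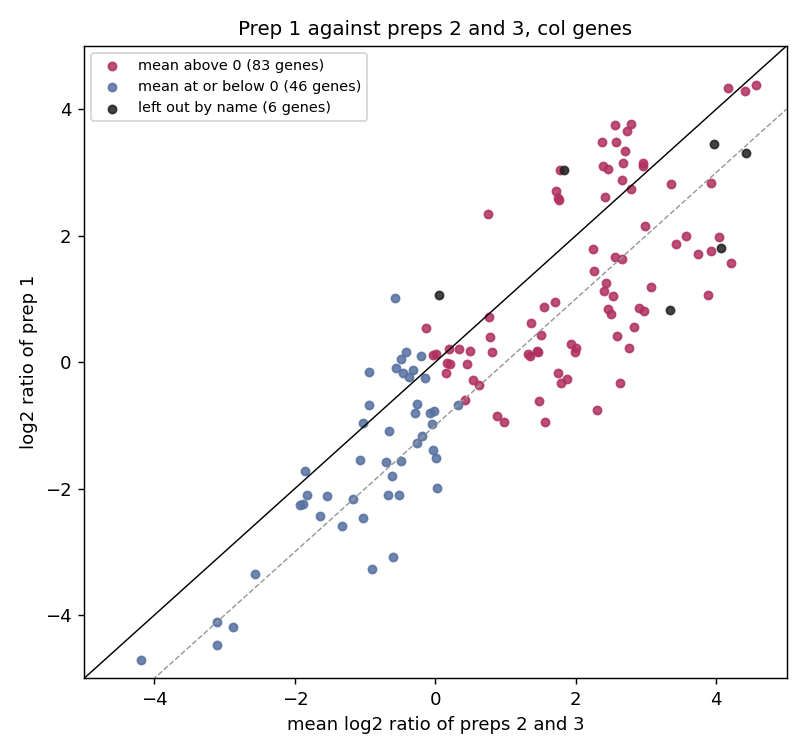
The log2 ratio on prep 1 (vertical axis) against the mean of preps 2 and 3 (horizontal axis) for the 83 col genes with a mean above 0 (red), the 46 with a mean below 0 (blue) and the 6 left out by name (black). The solid line marks equal ratios and the dashed line a prep 1 ratio lower by 1, under which 38 of the 83 red points lie.

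Sorted after these values were seen, the genes fell into several profiles. In 30 genes prep 1 was the lowest by more than 1 unit, with medians of 0.32, 2.23 and 2.67 on preps 1, 2 and 3, and in 23 of these 30 prep 3 was the highest. The largest gaps between prep 1 and the mean of the others were -3.06 for col-17, -2.96 for col-104 and -2.81 for col-162. Prep 3 was the lowest by more than 1 unit in 5 genes, col-142, col-143, col-178, col-98 and col-103, with medians of 3.10, 3.12 and 1.54. In 24 genes all 3 preps stayed within 1 unit. These steady genes stood at both ends of the set, from col-129, col-139, col-93, col-159 and col-94 at the top to col-151, col-64 and col-65 at the bottom. The remaining 24 fell between these descriptions, and among them col-140, col-149 and col-184 were more than 1 unit higher on prep 1 than the mean of preps 2 and 3, as was col-103.

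A low prep 1 was also found in other genes of the epidermis, so it is not particular to the 83. The 46 col genes below the reference had medians of -1.53, -0.65 and -0.58, with prep 1 lowest in 33 (71.7%). The 6 col genes left out by name had medians of 2.42, 3.38 and 3.93, with prep 1 lowest in 4 (66.7%). Within those 6, col-38 and col-49 had the profile of col-120, at 1.80, 3.75 and 4.37 and at 0.83, 3.03 and 3.65, whereas the adult marker col-19, at 3.04, 1.82 and 1.85, and col-63, at 1.05, 0.23 and -0.13, were highest on prep 1. A list of 20 epidermal and seam genes that encode no collagen had medians of -1.55, -0.32 and -0.41. Prep 1 was the lowest array for 13 of these 20 (65.0%). The gap was largest for the apical matrix genes noah-2 and noah-1 and the apical secretion gene che-14. Others went the other way, such as nas-37 and dlg-1, which were highest on prep 1. By the limma fit 7 of the 20 were lower and 2 higher, ifb-1 and mup-4, where 9.37% of all genes were lower and 11.3% higher. Both these 20 and the 46 col genes had negative medians. Across the array, ratios under 0.6 were more frequent on prep 1, at 3411 spots, than on preps 2 and 3, at 2391 and 2437. Whether other genes with negative ratios were as often lowest on prep 1 was not tested.

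Markers of the germ line moved otherwise. The 23 oocyte and eggshell genes measured of 24 listed had medians of 1.29, -0.05 and -0.25, and 18 of them (78.3%) were lowest on prep 3. The yolk receptor gene rme-2, with the largest gap of the list, stood at 2.44, 0.62 and -0.10, and the eggshell gene cbd-1 at 2.57, 1.43 and 0.05. Prep 1 was the lowest array for 2 genes of the list. These were cpg-2, at -0.25, -0.15 and 0.15, and cav-1, which was lower by limma at -1.81 ± 0.52 (adjusted p = 8.05e-04). The 30 major sperm protein genes had medians of 2.83, 2.72 and 3.03. Prep 1 therefore combined lower ratios of many cuticle collagens with higher ratios of most listed oocyte genes and about the same ratios of sperm genes. The part of the stage or makeup of the preps in the collagen values was not tested. Basement membrane collagens, which are made largely outside the epidermis, were another comparison. Of 3 measured, emb-9 (1.85, 3.11 and 1.77) and let-2 (1.42, 2.34 and 1.00) were higher by limma, with adjusted p of 4.07e-04 and 0.00279, and cle-1 was lower at -0.77 ± 0.26 (adjusted p = 0.0473). None of the 3 was lowest on prep 1. Prep 1 was still under the mean of preps 2 and 3 in each, with gaps of -0.59 for emb-9, -0.25 for let-2 and -0.08 for cle-1.

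**Figure D3:**
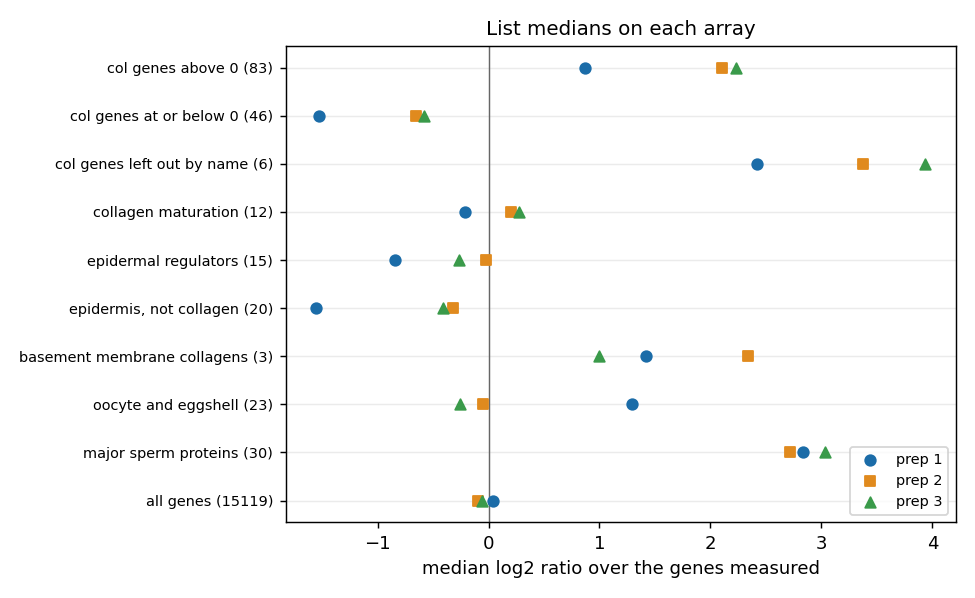
The median log2 ratio of each list (horizontal axis, number of genes measured in brackets) on preps 1, 2 and 3. The 3 groups of col genes and the non-collagen epidermal genes have prep 1 as the lowest point, the oocyte and eggshell list has it as the highest at 1.29, and the sperm list stays between 2.72 and 3.03.

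Many of these genes sit next to each other in the genome, which made it possible to ask how alike neighbours were. In the RefSeq order of protein-coding genes, 28 of the 81 placed genes formed 12 runs with no other protein-coding gene between, 4 runs of 3 and 8 runs of 2. The 16 neighbouring pairs differed in their mean ratio by a median of 0.62, against 1.12 for the other 3224 pairs, and in the gap between prep 1 and the other preps by 0.76, against 1.17. None of the 16 pairs lay in 1 inferred print block of the array, and with each block centred the medians were 0.67 against 1.18 and 0.82 against 1.19. Most of the 16 pairs were 5000 or 4996 spot numbers apart, so they held the same or nearly the same place in different inferred blocks. Centring the blocks does not remove a likeness that comes with such a place, and this was not tested. Pairs share genes, so these medians are descriptions. Signal shared between near-identical sequences was not tested.

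Some neighbours matched on every prep. On chromosome V, col-12 stood at 1.67, 2.56 and 2.55 and col-13 at 1.62, 2.58 and 2.74. This pair is known to encode nearly identical collagens, so the spots may read the same RNA. Also on V, col-144 (-0.17, 1.61 and 1.89), col-145 (-0.34, 1.30 and 2.28) and col-10 (-0.94, 0.77 and 1.18) shared a low prep 1 across the run. Of these 3 genes, col-144 passed the fit across all genes at 1.11 ± 1.12 but not without prep 2, at 0.86, or prep 3, at 0.72. Its call was also lost with median centring, quantile normalization, print-block centring, a robust variance or genes on 2 or more arrays included. The pairs col-159 with col-160 on V and col-126 with col-127 on IV differed in the gap between prep 1 and the others by 0.03 and 0.11. The first pair was steady, between 2.58 and 3.15, and the second was low on prep 1.

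Other neighbours did not match. On chromosome II, col-20 was highest on prep 1 while the genes on both of its sides were lowest there, with col-17 at -0.76, 2.18 and 2.42 and col-73 at 0.16, 1.38 and 2.60. In another run on II, col-80 was highest on prep 1, next to col-39 at 1.26, 2.00 and 2.85, which in turn adjoined col-79 at -0.27, 1.00 and 2.74. On prep 3 the genes of each of these runs came together, between 2.42 and 2.60 in the first and between 2.59 and 2.85 in the second, and on prep 1 the lowest and the highest of each were apart by more than 4 units. On chromosome III, col-92, col-93 and col-94 stood at 2.83, 2.82 and 3.15 on prep 1 and at 4.93, 3.66 and 2.96 on prep 2. On IV, col-104 reached 3.21 on prep 3 where its neighbour col-105 was at 0.59.

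**Figure D4:**
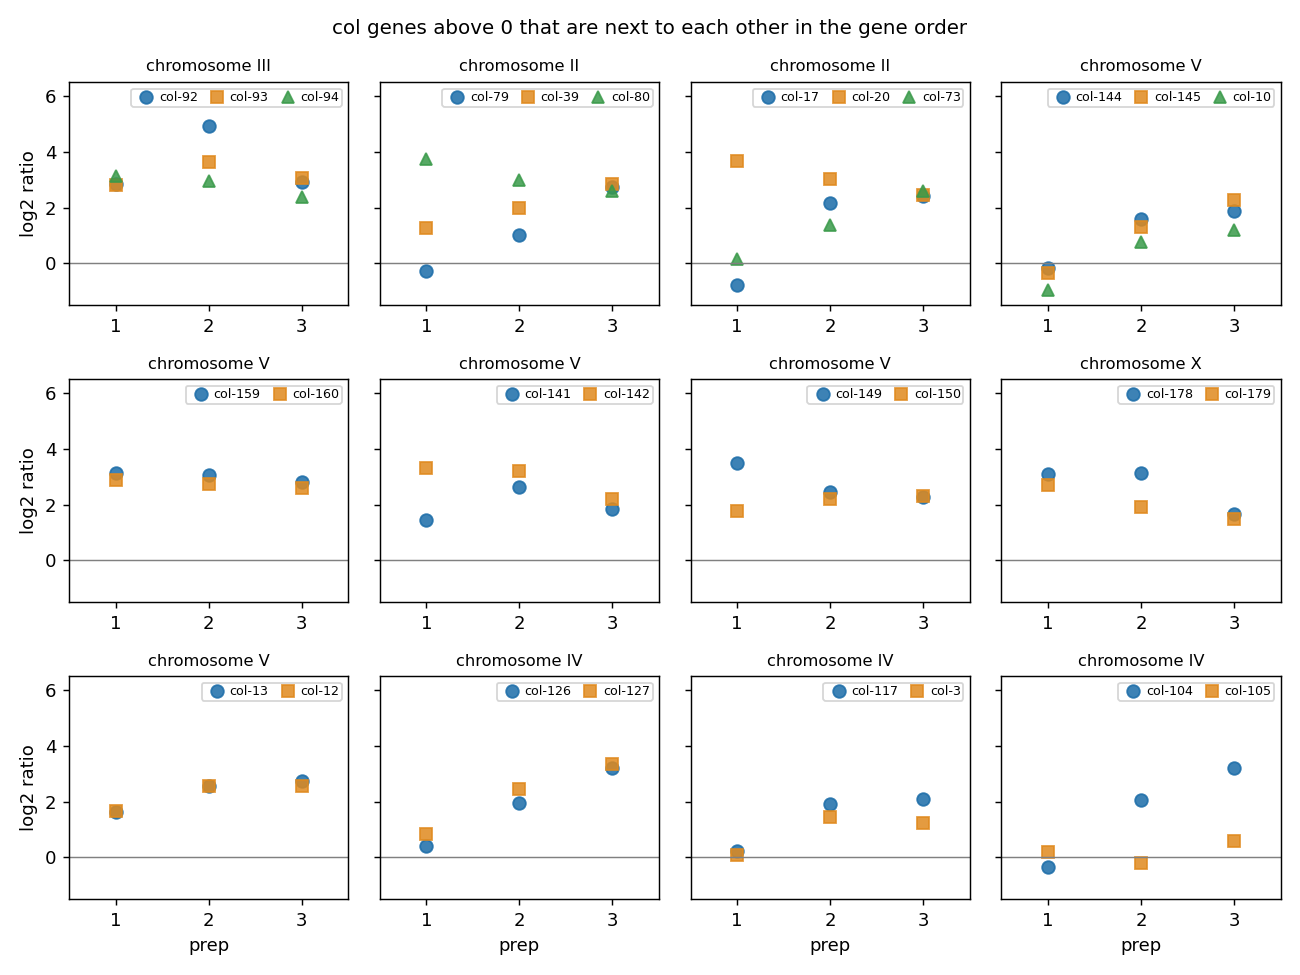
The log2 ratio (vertical axis) on preps 1, 2 and 3 (horizontal axis) for the 12 runs of col genes above the reference that adjoin each other among protein-coding genes, 1 panel a run with its chromosome. The points overlap for col-12 and col-13, and in both runs on chromosome II they are far apart on prep 1 and close on prep 3.

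The gene col-175 had no chromosome in the gene table used, so the counts by chromosome leave it out. By chromosome, the others of the 83 genes were set against the col genes of the rule, with those left out by name not counted. Of these genes on III, 9 of 10 were above the reference, and of those on V 23 of 29. On IV it was 22 of 33, on II 11 of 20, on I 7 of 14 and on X 10 of 22. The median ratio of the genes above the reference was highest on III at 2.83 and lowest on I at 0.73. The sign of the ratio chose the genes, so these are descriptions, and neighbouring genes are not independent.

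The enzymes that mature collagen were set beside the collagens from a list of 12 genes, all measured. In the fit across all genes, 1 was higher, 11 did not pass and 0 were lower, where 11.3% of all genes were higher and 9.37% lower, and 6 of the 12 had an unadjusted p under the threshold, against 33.7% of all genes. The one called was pdi-2, which encodes a protein disulphide isomerase that is also a subunit of the collagen prolyl hydroxylase. It stood at 1.09, 1.32 and 0.88, a mean of 1.10 ± 0.22 (limma adjusted p = 0.00864). The list's medians were -0.22, 0.20 and 0.28, and prep 1 was the lowest array for 9 of the 12.

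The catalytic subunits of the prolyl hydroxylase did not move alike. The gene dpy-18 stood at -0.24, 0.93 and 2.23 and phy-2 at -1.59, -0.23 and -0.71, and neither passed (adjusted p = 0.0976 and 0.0632). As for col-120, prep 1 was the lowest and prep 3 the highest for dpy-18. Without prep 1, dpy-18 passed at 1.58, and without prep 2, phy-2 passed at -1.15. Each of these fits rests on 2 arrays, and passing in one cannot be set against passing in another. A further hydroxylase gene, phy-3, was at 1.45, 1.05 and 0.01 and passed without prep 3, at 1.25. Of the genes for cross-linking, doxa-1, a partner of the oxidase BLI-3, stood at 0.17, 0.64 and 2.09 and passed without prep 2, at 1.13. The peroxidase gene mlt-7 was at 0.48 ± 0.70, the oxidase gene bli-3 at -0.14 ± 0.32 and the tetraspanin gene tsp-15 at -0.10 ± 0.52. Of the genes for cutting the chains, bli-4, which encodes a furin-like protease, stood at 0.29 ± 0.55, the astacin protease gene dpy-31 at -0.60 ± 0.23 and the protease inhibitor gene bli-5 at 0.22 ± 0.34. The thioredoxin-like gene dpy-11 was at -0.04 ± 0.20.

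Among 15 measured regulators of the epidermis and of the larval to adult switch, of 16 listed, 1 was lower, 14 did not pass and 0 were higher, where 11.3% of all genes were higher and 9.37% lower. An unadjusted p under the threshold was found for 6 of the 15, against 33.7% of all genes. The one called was hbl-1, a hunchback-like gene that holds back the adult programme, at -1.40, -0.50 and -1.02, a mean of -0.97 ± 0.45 (limma adjusted p = 0.0227). It did not pass without prep 1, at -0.76. The zinc finger gene lin-29, which drives the adult programme of the epidermis, was at -0.65 ± 0.30, and mab-10, whose product works with LIN-29, was highest of the list at 0.64 ± 0.14. The nuclear receptor genes nhr-23 and nhr-25, both needed for moulting, stood at 0.86, 0.05 and 0.23 and at -1.70, 0.09 and -0.93. The latter passed without prep 2, at -1.32. The GATA factor genes elt-1 and elt-3 of the epidermis were at -0.80 ± 0.55 and -0.62 ± 0.34, and elt-1 passed without prep 3, at -1.01. The list's medians were -0.85, -0.02 and -0.27.

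**Figure D5:**
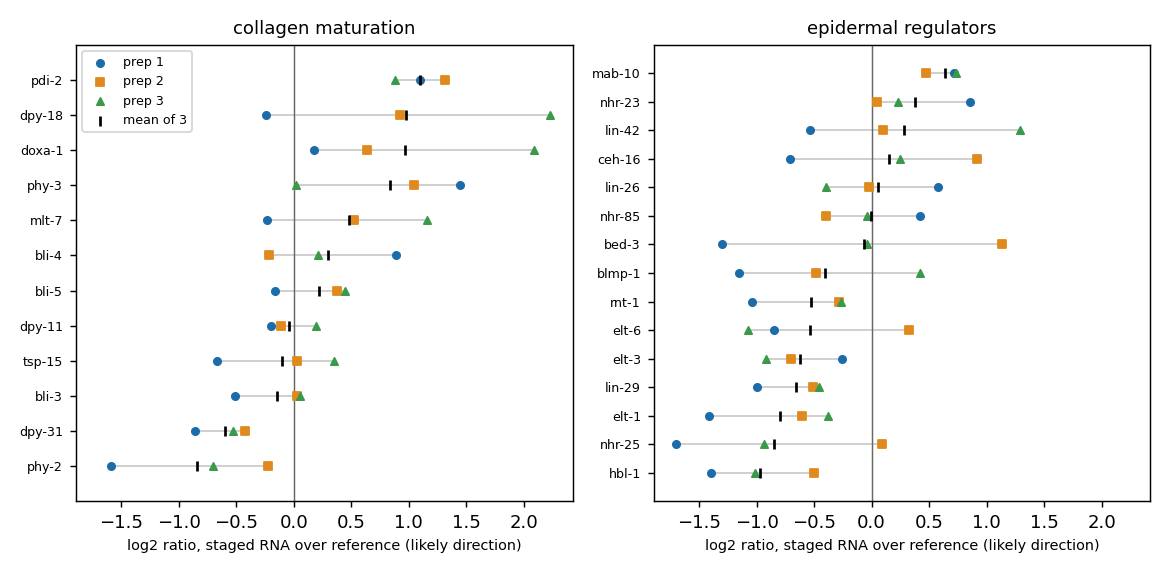
The log2 ratio (horizontal axis) of the 12 collagen maturation genes (left) and the 15 epidermal regulator genes (right) on preps 1, 2 and 3, with the mean as a black bar. The gene pdi-2 lies between 0.88 and 1.32 on all 3 preps and hbl-1 between -1.40 and -0.50, while most other genes have preps on both sides of 0.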

How the data were processed

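The authors deposited 1 log2 ratio per spot and array. What software read the images, how background and normalization were treated, and which dyes were used: not given in the sources used here. The log base was checked on the values: 2 raised to each deposited value whose ratio was under 0.6 fell on steps of 0.001. Array means lay between 0.01 and 0.02. Intensities were not used here, so dim or saturated spots were kept, and with 3 arrays the precision is limited.

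Gene names came from GEO's platform annotation, with symbols updated by gene identifier from a RefSeq table (assembly WBcel235). A single gene was listed for 15655 spots and none for 4147, while 198 spots with several genes, of which 2 named a col gene, were not used. Spots of a gene were averaged. The mean over arrays was tested against 0 with limma 3.58.1 (R 4.3.3; lmFit, eBayes, two-sided), adjusted over 15119 genes. The reference's own spread is left out. The fit was tested on simulated data, drawn with independent genes and without differences between preps or error of the reference. That test therefore cannot show how such features affect the calls above. Print blocks are 32 runs of 625 spot numbers, inferred and not stated.

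Genes were named by rule: the 12 highest, 4 lowest, 4 just outside, the 4 widest and 4 narrowest ranges, the 4 longest runs of neighbours, and called or extreme list genes; others named above were chosen after their values were seen. The members and lists were chosen with earlier results of these data known. Alternatives changed the centring, scaling, block, spots, missing values, variance, weights, threshold and preps.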

Additional observations from a re-analysis of the deposited data

How the results depend on the processing

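The number of the 83 genes called higher stayed between 48 and 64 and their median log2 ratio between 1.49 and 2.17 under every alternative run, those leaving out a prep included. The alternatives reuse the values that chose the 83 genes, so a positive median was to be had in any case and nothing is read from either range. The gap of prep 1 to the other preps, -0.82, became -0.94 with median centring, -1.02 with scaling by the median absolute deviation and -0.99 with print-block centring. Of the maturation genes, 1 was called, 3 with print-block centring (phy-3 and dpy-31 added) or array weights (dpy-18 and doxa-1 added), and 2 to 3 without 1 prep. Of the regulators, 1 was called, 3 with print-block centring (mab-10 and lin-29 added), 0 at an adjusted p of 0.01, and 0 to 2 without 1 prep. Leaving out prep 2 or 3 for the prep 1 gap was chosen after seeing the data.

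Of 468 values for the 39 named genes, 424 kept direction and call, 17 lost a call, 12 gained one and 15 changed sign. The sign turned only for genes that were not called. Under median centring, scaling, quantile normalization and array weights col-176 stood at 0.023, 0.026, 0.038 and 0.087, and col-148 at 0.064 with print-block centring. Leaving out 1 prep moved col-89 between -0.16 and 0.42, col-64 between -0.056 and 0.15, col-65 between -0.034 and 0.11, col-176 between -0.23 and 0.32, col-52 between -0.58 and 0.32, col-177 between -0.21 and 0.0082 and col-10 between -0.083 and 0.98. The cause was not tested. Using 1 gene per group of near-identical proteins was not run, because no protein sequences were used here. No paired analysis was possible because the only group is compared with a common reference.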
